A study of Homo sapiens with 12 samples.

Results

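RNA of exosomes labelled Con was compared with RNA of the AC16 cells labelled Con, using 3 exosome libraries and 3 cell libraries, which are 6 of the 12 libraries of the series. The libraries were chosen by their titles, and the comparison covers the 11940 genes that were listed with a count in both compartments, of 15414 listed in either. The 3441 genes listed in cells only and the 33 listed in exosomes only are described apart. AC16 is an established human cell line that arose by fusion of primary ventricular cardiomyocytes with transformed fibroblasts. Neither Con nor Ang, the name of the other groups, is spelled out in the labels, and no treatment dose, culture time or passage is given. The stated purpose of the series was to study microRNAs in exosomes of hypertrophic cardiomyocytes. The 6 Ang libraries (3 of exosomes and 3 of cells) enter only where their own comparison is set beside that of Con.

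Exosomes are small vesicles that cells release from endosomal compartments, and preparations of them hold microRNAs and also whole or broken messenger RNAs. Most messenger RNAs are spread through the cytoplasm, but some are held at defined places: those for secreted and membrane proteins are translated at the endoplasmic reticulum (ER), and a group that includes NET1 and RAB13 is carried along microtubules to the tips of cell protrusions. Ribosomal protein messengers share a pyrimidine-rich start that places their translation under control of growth signals, so they move in and out of polysomes together.

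Cell RNA was isolated with a miRNeasy Micro kit and sequenced from VAHTS Universal V6 libraries. Exosome RNA came from an exoRNeasy Maxi kit and SMARTer Stranded Total RNA libraries, so compartment, extraction and library kit cannot be told apart in any value below. Cell libraries held 9442962 to 11212674 gene reads and exosome libraries 717263 to 745311. Levels are counts per 1000000 reads of a library (CPM) after edgeR's trimmed-mean scaling of the library sizes. The scaling factors were 0.922 to 0.928 for exosome and 1.078 to 1.084 for cell libraries, so a level is a scaled share and not the plain share of reads. Levels are relative to the rest of the library: fewer vesicles and less RNA in each cannot be told apart, and a gene can be higher in exosomes because others are lower. Differences are log2 values, exosome minus cell, from edgeR's quasi-likelihood test after trimmed-mean scaling, with p-values adjusted by the Benjamini-Hochberg method over 11662 tested genes. Nothing in the labels ties the 3 libraries of a group to separate cultures, and these p-values therefore measure only the spread between libraries, which may be technical. The biological coefficient of variation was 0.229 among cell libraries and 0.473 among exosome libraries. Gene by gene, libraries of 1 compartment correlated more closely (Pearson's r of log2 CPM over the 5831 genes at or above the median level: 0.921 to 0.924 in cells and 0.769 to 0.780 in exosomes) than libraries of different compartments did (0.621 to 0.640).

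Of the 11662 genes, 1321 were higher in exosomes (11.3%) and 1074 were lower (9.21%) at an adjusted p of 0.05, together 20.5%. At an unadjusted p under 0.05 there were 4087. A test for a difference of more than 2-fold left 224 higher genes (1.92%) and 88 lower ones (0.755%). These percentages are the background against which every gene list below is read. The median difference over all tested genes was -0.08. With scaling by total reads alone this median moved to -0.30, a shift of -0.22, and the higher genes fell from 55.2% to 36.1% of those called. Without any 1 of the 3 cell libraries, when 9753 to 9766 genes passed the filter, 743 to 757 genes were higher and 375 to 390 lower.

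**Figure D1:**
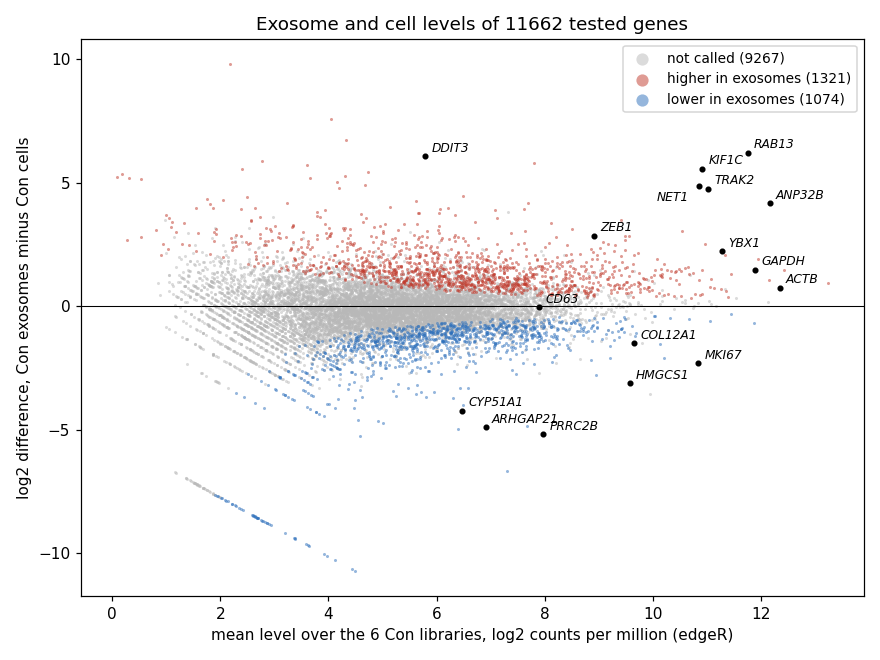
Each point is 1 of the 11662 tested genes, with its mean level over the 6 Con libraries (log2 CPM) on the horizontal axis and the fitted log2 difference, exosomes minus cells, on the vertical axis. Red marks the 1321 genes called higher, blue the 1074 called lower and black the labelled examples; the slanted stripe at lower left holds genes with 0 exosome reads, whose fitted differences depend on the small count the fit adds.

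Among the genes named by rule, which were called, did not overlap between groups, had even libraries and lay at or above the median level, RAB13 had the largest positive difference. It belongs to the messages known to be carried to cell protrusions, as do NET1 and TRAK2. RAB13 encodes a small GTPase of tight junctions and vesicle traffic, and it lies on GRCh38 chromosome 1, 153981617-153986358. Its level was 7234, 6713 and 6615 CPM in the 3 exosome libraries and 101, 61.1 and 118 CPM in the 3 cell libraries. The groups lay far apart, with a difference of 6.20 ± 0.27 (SE; adjusted p = 6.36e-05), a 73.3-fold higher scaled level in exosomes. NET1, a guanine nucleotide exchange factor for small GTPases (chromosome 10, 5412551-5458463), measured 3599, 3643 and 3606 CPM in exosomes and 126, 119 and 125 CPM in cells, and libraries within each group were nearly equal. Its difference was 4.88 ± 0.07 (SE; adjusted p = 2.51e-07). TRAK2, an adaptor that links mitochondria to kinesin motors (chromosome 2, 201377207-201451579), had 4411, 3986 and 3733 CPM in exosomes against 149.9, 153 and 146 CPM in cells, a difference of 4.76 ± 0.09 (SE; adjusted p = 1.26e-06).

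Per kilobase of exon the 3 messages also changed places among the listed genes. RAB13 ranked 6 of 11959 in exosomes (2491 CPM per kilobase) and 1060 of 15362 in cells (33.98 CPM per kilobase). NET1 ranked 24 in exosomes and 1270 in cells, and TRAK2 ranked 46 and 2110. ANP32B, which encodes a histone-binding chaperone, ranked 2 and 69. GAPDH and ACTB, which most cells express highly, ranked 8 and 9 in exosomes and 12 and 6 in cells. The gene ranked first in both compartments was MTRNR2L12, a nuclear copy of the mitochondrial large ribosomal RNA gene, so its reads cannot be assigned with certainty.

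KIF1C, the kinesin motor known to carry this group of messages, was itself in it. Its level was 4353, 3678 and 3383 CPM in exosomes and 104, 135 and 3.73 CPM in cells, so the third cell library stood far below the other two. The difference was 5.56 ± 1.14 (SE; adjusted p = 0.0176), and without the first cell library the adjusted p was 0.0568. DDR2, a collagen receptor, was higher by 1.54 ± 0.12 (SE; adjusted p = 0.000593), and PALLD, an actin-bundling protein, by 2.56 ± 0.23 (SE; adjusted p = 0.00102). PALLD had a like difference in the Ang libraries but did not pass there (2.43 (adjusted p = 0.0718)). KANK2, an adhesion regulator, was uneven among exosomes (27.6, 231 and 119 CPM, against 17.1, 11.8 and 16 CPM in cells). It was called at 3.07 (adjusted p = 0.0216) but lost the call without any 1 cell library or without the third exosome library. CYB5R3 (1.35 (adjusted p = 0.123)), PKP4 (1.48 (adjusted p = 0.0656)) and DYNLL2 (0.30 (adjusted p = 0.651)) did not pass the test. Thus 7 of 10 listed protrusion messages were higher and 0 lower, with a median difference of 2.81 against -0.08 for all genes, and 5 to 7 were higher without any 1 cell library. The list was drawn up with earlier results of these libraries known, so its direction is not independent evidence.

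**Figure D2:**
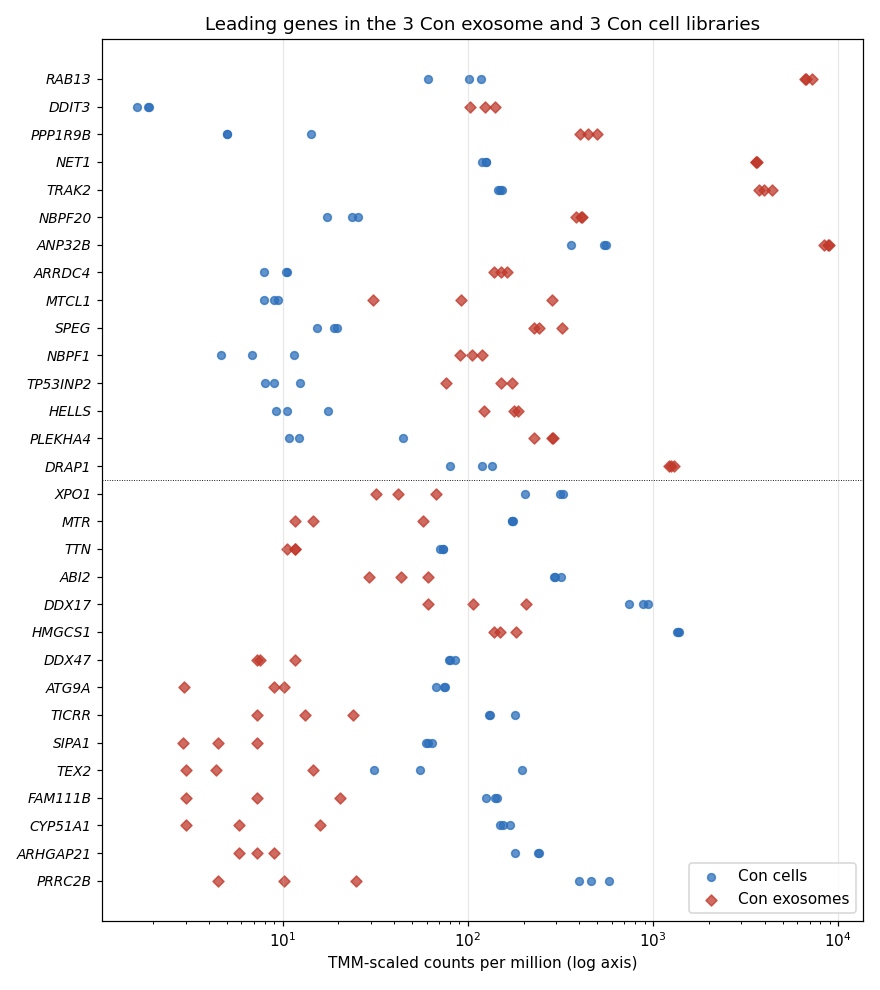
Levels (CPM, log axis) of the 15 highest and 15 lowest named genes, above and below the dotted line, with 1 point per library: red diamonds are Con exosomes and blue circles Con cells. For RAB13, NET1 and TRAK2 the cell points lie between 61.1 and 153 CPM with every exosome point far above them, and MTCL1, TEX2 and MTR show a wide spread within a group.

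Messages carried to protrusions are known for purine-rich stretches in their 3′ untranslated regions (UTRs), which are shown here because the 3 highest members differ in them. For each gene the longest unbroken run of A and G in the 3′ UTR of 1 GENCODE release 29 transcript was taken, and the first 30 bases around it are printed 5′ to 3′ with the purine run in capitals:
RAB13: AGAAAGGAAAAAAAGGAAGAGAGAGGAAGG
NET1: ttAAAAGAAAAAGAGAGGAAAAGAGAGtag
TRAK2: gtgttcAGAGGGAGAAAAGAAAGGtttaat
DDR2: gaactAAAAAAGGAAAAAAAAAAGcctagg
KIF1C: ggaggctGAGGAAAGGAAGAGGGcacggag
The RAB13 run was 45 bases long, and only its first 30 are shown. The runs of NET1, TRAK2, DDR2 and KIF1C were 25, 18, 19 and 16 bases. A run by itself did not mark higher genes. Of 1199 tested genes with a run of 20 or more, 8.26% were higher and 11.3% lower (median -0.22), and of 10146 genes with shorter runs 11.6% were higher and 8.90% lower (median -0.07). Long UTRs hold long runs by length alone, and within the middle of 5 groups by UTR length 15.1% of 166 genes with such a run were higher against 10.2% of 2103 without. In the longest group the shares were 5.77% of 676 and 6.65% of 1593. In the shortest they were 13.8% of 29 with such a run and 17.4% of 2240 without, and in the next 8.20% of 61 and 13.5% of 2208. In the fourth they were 9.74% of 267 and 8.39% of 2002, so the groups differed in direction. This search was chosen after the leading genes were seen, and the leading genes outside the list had runs of every size: 24 in ARRDC4, 22 in SPEG, 16 in ANP32B, 15 in PPP1R9B, 12 in TP53INP2, 11 in DDIT3, 10 in PLEKHA4 and 9 in HELLS. PALLD, a called member of the list, had a run of 8.

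Named genes outside that group had varied roles. DDIT3, the stress-induced transcription factor CHOP, measured 139.7, 102 and 123 CPM in exosomes and 1.88, 1.63 and 1.91 CPM in cells, a difference of 6.06 ± 0.26 (SE; adjusted p = 5.31e-05). ANP32B measured 8408, 8808 and 8898 CPM in exosomes and 363, 544 and 555 CPM in cells (4.16 ± 0.18 (SE; adjusted p = 5.31e-05)), and its exosome libraries were again nearly equal. PPP1R9B, an actin-binding scaffold of protein phosphatase 1, was at 501, 403 and 448 CPM against 5.04, 4.99 and 14.3 CPM (5.79 ± 0.49 (SE; adjusted p = 0.000865)). The arrestin-domain protein ARRDC4 (3.96), the muscle-type kinase SPEG (3.88), the chromatin remodeller HELLS (3.69), the transcriptional corepressor DRAP1 (3.50) and the autophagy regulator TP53INP2 (3.76) were higher with adjusted p-values of at most 0.00151. MTCL1, a microtubule crosslinking factor, was called at 3.94, but its exosome libraries ran from 30.7 to 284 CPM, and the difference was between 2.78 and 4.40 with 1 library left out. PLEKHA4 (3.56) ranged from 3.25 to 4.56 in the same way. NBPF20 (4.17) and NBPF1 (3.78) belong to a family of near-identical copies, so the split of reads between them is uncertain.

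Of the named lower genes, PRRC2B had the largest difference. PRRC2B, a protein of translation initiation and stress granules, was at 10.2, 24.8 and 4.51 CPM in exosomes and 459.7, 576 and 398 CPM in cells, a difference of -5.17 ± 0.48 (SE; adjusted p = 0.00121), which was between -6.02 and -4.78 with 1 library left out and lost its call with limma. ARHGAP21, a GTPase-activating protein of the Golgi, measured 5.82, 7.3 and 9.01 CPM against 242, 241 and 181 CPM (-4.90 ± 0.27 (SE; adjusted p = 0.000128)). In the Ang libraries this gene did not pass (-1.13 (adjusted p = 0.511)), with 2, 106 and 3 exosome reads. The autophagy lipid scramblase ATG9A (-3.29), the RNA helicases DDX47 (-3.20) and DDX17 (-2.77), the nuclear export receptor XPO1 (-2.58), the actin regulator ABI2 (-2.75), the replication factor TICRR (-3.32), the protease FAM111B (-3.73) and SIPA1, a Rap GTPase-activating protein (-3.65), were also lower. With limma, the calls of TICRR and XPO1 were lost. MTR, the vitamin B12-dependent methionine synthase, rested on uneven exosome libraries (14.6, 11.7 and 57.1 CPM), and its difference of -2.65 ranged from -3.74 to -2.30 with 1 library left out. TEX2, a lipid-transfer protein of the ER (-3.68 (adjusted p = 0.0353)), varied among cells from 31.2 to 197 CPM and ranged from -4.68 to -2.53, losing its call in several of these fits. Of all 1074 lower genes, 137 had fewer than 10 exosome reads in total, and 128 of the 11940 genes had 0 reads in all 3 exosome libraries.

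For some named genes the annotation places more than 20% of exon bases in another gene on the same strand (RAB13, MRPL53, HSPA1B, CD68, NDUFA13, FAU, ALDOA, RAB5C, DDX47, ATG9A and CYP51A1) or on the other strand (DDIT3, FTH1, TPM1, ABI2 and IER2). For RAB13 the shared part was 24.8%. How such reads were assigned is not given in the sources used here, so these counts may hold reads of the partner gene.

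Cytosolic ribosomal proteins had the largest share of higher genes of any list tested. Of 84 genes for cytosolic ribosomal proteins, paralogs included, 72 were higher in exosomes and 0 lower, against 11.3% and 9.21% of all genes. Their median was 0.85 (0.62 with total-read scaling, with 62 higher). In 80 of 84 every exosome library exceeded every cell library, against 2307 of all 11662 tested genes. Without any 1 cell library 61 to 64 were higher. RPLP2, an acidic protein of the ribosomal stalk, measured 1439, 1268 and 1447 CPM in exosomes and 275, 308 and 345 CPM in cells (2.16 ± 0.12 (SE; adjusted p = 0.000128)). RPL29 measured 790.2, 809 and 843 CPM against 258, 262 and 255 CPM (1.66 ± 0.09 (SE; adjusted p = 0.000128)), and FAU, whose product is cut to give the small-subunit protein eS30, 648, 659 and 625 CPM against 223, 191 and 208 CPM (1.63 ± 0.11 (SE; adjusted p = 0.000272)). The groups of these 3 genes did not overlap. The single gene of the list below 0 was RPS29, at 37.8, 33.6 and 31.5 CPM in exosomes and 35.8, 40.5 and 40.8 CPM in cells (-0.18 (adjusted p = 0.596)). Ribosomal protein genes have many processed pseudogenes, so their reads may be split among copies.

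Their shared start is shown for 4 of the higher genes, since the pyrimidine-rich start is the feature these messages have in common. Each window holds 15 bases before and 15 after the first start of the gene in RefSeq (GRCh38.p14), 5′ to 3′ on the gene's strand, with CTTTC in capitals:
RPL28, chr19:55385917-55385946, plus strand: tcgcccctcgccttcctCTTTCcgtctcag
RPL29, chr3:51995881-51995910, minus strand: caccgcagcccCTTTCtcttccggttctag
RPL35, chr9:124861943-124861972, minus strand: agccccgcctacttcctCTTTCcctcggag
FAU, chr11:65122120-65122149, minus strand: cgccctcgcttcttcctCTTTCtcgactcc
RPL28 was higher by 1.55 and RPL35 by 1.50. CTTTC lay in 28 of 67 such windows of ribosomal protein genes (41.8%), in 3.54% of 9511 other tested genes and in 4.18% of 27305 starts in the table. On the other strand (GAAAG) it lay in 1.49% of the ribosomal windows and 2.32% of the other tested ones. Ribosomal protein genes with and without it had medians of 0.85 and 0.81, and 78.6% and 87.2% of them were higher. Other tested genes with it had a median of 0.02 and without it -0.09, and 11.3% and 10.6% of them were higher. The motif was chosen after the lists had been counted, and a match is only a match of letters.

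Translation factors went both ways. Of 40 genes, 17 were higher and 4 lower (median 0.28, or 0.05 with total-read scaling), and 12 to 15 were higher without any 1 cell library. Subunits of eIF3, the complex that holds the small ribosomal subunit ready for a messenger, were among the higher ones. EIF3A measured 4024, 4415 and 4127 CPM in exosomes and 666, 1139 and 1144 CPM in cells (2.09 ± 0.21 (SE; adjusted p = 0.00144)), and EIF3B 637, 519.9 and 602 CPM against 125, 136 and 146 CPM (2.11 ± 0.13 (SE; adjusted p = 0.000223)). EIF3C was higher by 1.81 (adjusted p = 0.00569), whereas EIF3D (0.04 (adjusted p = 0.831)), EIF3E (-0.31 (adjusted p = 0.366)) and EIF3L (-0.12 (adjusted p = 0.517)) did not pass. The elongation factor EEF2, which moves the ribosome along, was at 4022, 3839.7 and 4046 CPM against 1481, 1589.5 and 1715 CPM (1.32 ± 0.07 (SE; adjusted p = 0.000123)). The 4 lower factors were the helicases EIF4A1 (-0.72 (adjusted p = 0.0131)) and EIF4A2 (adjusted p = 0.0048), the scaffold EIF4G1 (-0.95 (adjusted p = 0.00578)) and its relative EIF4G2 (-1.22 (adjusted p = 0.00298)). EIF4A1 lost its call without any 1 cell library. EIF4G3, another scaffold gene, was called higher (adjusted p = 0.0225), a call lost when the second cell library or the first or the third exosome library was left out. These factors were singled out after their values were seen. Of 23 aminoacyl-tRNA synthetases, which charge tRNAs, 1 was higher (TARS1, 0.68 (adjusted p = 0.0303)) and 2 lower (EPRS1, -1.18 (adjusted p = 0.0088), and IARS1, -1.13 (adjusted p = 0.0483)). With total-read scaling these counts were 0 and 4, and without the third cell library 0 and 1.

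**Figure D3:**
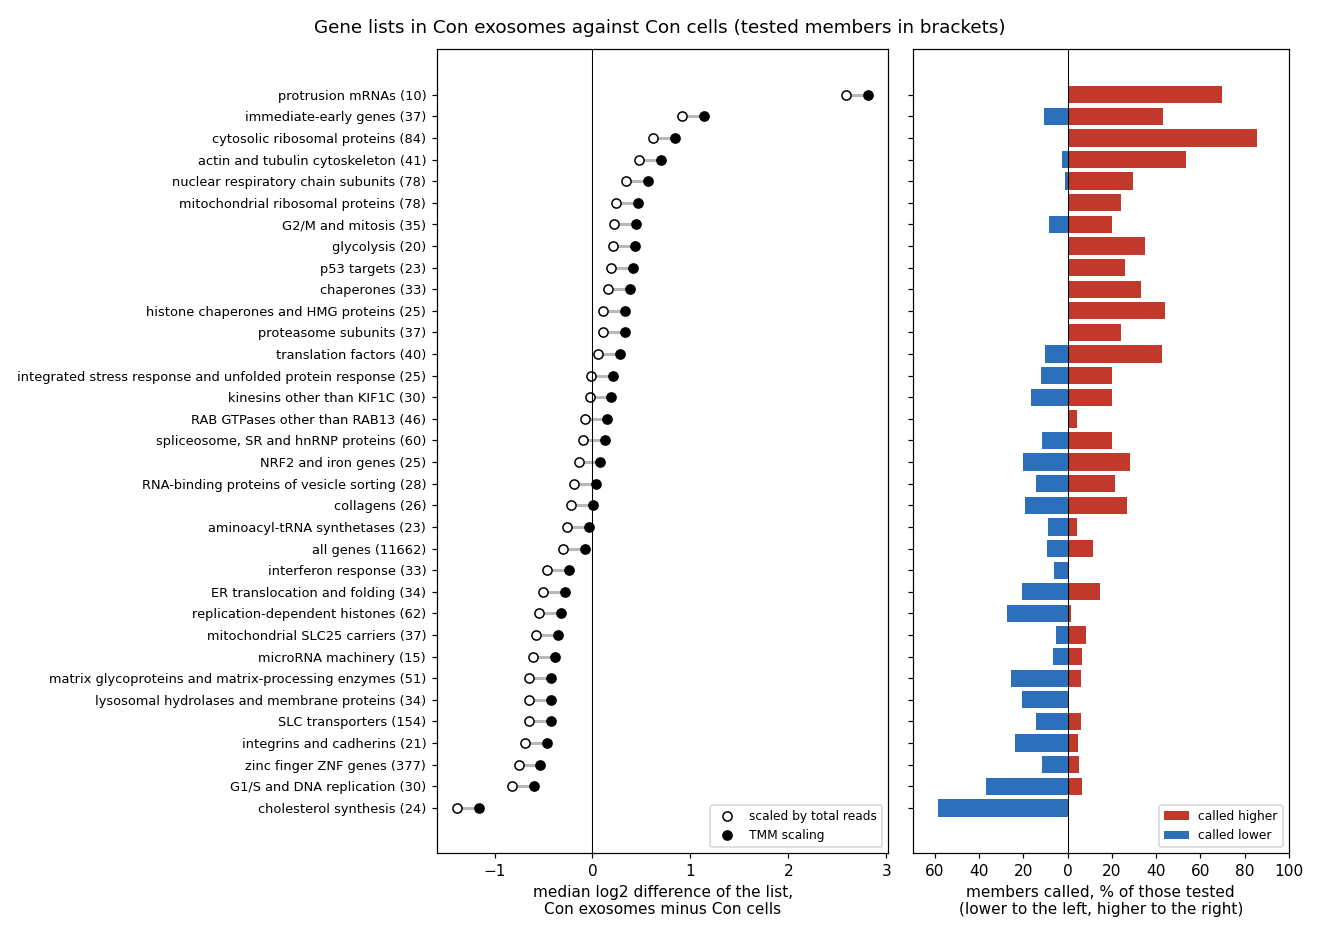
The left panel shows the median log2 difference (exosomes minus cells) of each list with trimmed-mean scaling (filled) and with total-read scaling (open), and the right panel the percentage of tested members called higher or lower. Medians run from 2.81 for protrusion messages to -1.15 for cholesterol synthesis with trimmed-mean scaling, against -0.08 for all genes, and total-read scaling moves every list to the left.

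Other housekeeping machines were higher to a smaller extent. Mitochondrial ribosomal proteins had 19 of 78 higher and 0 lower (median 0.46), and subunits of the respiratory chain encoded in the nucleus 23 of 78 higher and 1 lower (0.57). The higher counts fell to 8 or 9 and to 8 without any 1 cell library. With total-read scaling 12 and 11 were higher and 1 and 3 lower. MRPL53 measured 29.1, 35.1 and 43.6 CPM in exosomes and 3.95, 5.38 and 5.55 CPM in cells (2.85 ± 0.34 (SE; adjusted p = 0.00276)). It did not pass in the Ang libraries (1.10 (adjusted p = 0.243)). NDUFA13 of complex I was at 97.5, 78.9 and 97.6 CPM against 23.5, 24.6 and 26.6 CPM (1.87 ± 0.20 (SE; adjusted p = 0.00193)), and COX4I1 of cytochrome c oxidase was higher by 1.64 (adjusted p = 0.00615). No gene of the mitochondrial genome was listed. Proteasome subunits had 9 of 37 higher (median 0.33, and 3 or 4 higher without any 1 cell library). With total-read scaling the median was 0.11 and 4 were higher. PSMA7 (0.78 (adjusted p = 0.0151)) and PSMD9 (1.22 (adjusted p = 0.00914)) were among the 9. PSMB2 was called at 2.77 in Con, but its difference in the Ang libraries was 0.14 (adjusted p = 0.821).

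Chaperones and glycolytic enzymes followed the same direction. Of 33 chaperone genes, 11 were higher and 0 lower (median 0.38, 6 to 8 without any 1 cell library). With total-read scaling 8 were higher and 1 lower (median 0.16). HSPA1A, the heat-inducible HSP70, measured 1023, 1136 and 1061 CPM in exosomes against 201, 204 and 176 CPM in cells (2.47 ± 0.11 (SE; adjusted p = 5.31e-05)). Its near-identical copy HSPA1B was higher by 2.26 (adjusted p = 0.000209), and reads cannot be assigned between them with certainty. The prefoldin subunit PFDN2, which hands actin and tubulin to the folding chaperonin, was higher by 1.50 (adjusted p = 0.00175). Of 20 glycolysis genes 7 were higher and 0 lower (median 0.43), and 6 were higher without any 1 cell library. With total-read scaling 6 were higher and 1 lower (median 0.21). GAPDH measured 5773, 5654 and 5349.7 CPM against 1991, 2072 and 2023 CPM (1.46 ± 0.05 (SE; adjusted p = 3.93e-05)), GPI was higher by 1.53 (adjusted p = 0.00184) and ALDOA by 1.30 (adjusted p = 0.000166). PGK1 overlapped between compartments (0.76 (adjusted p = 0.0838)).

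Cytoskeletal genes were higher in over 50% of cases. Of 41 genes for actin, tubulin and their partners 22 were higher (53.7%) and 1 lower, with a median of 0.70, and 18 to 21 were higher without any 1 cell library. With total-read scaling 17 were higher and 3 lower (median 0.48). TPM2, a tropomyosin, measured 2362, 3940.5 and 4007 CPM in exosomes and 750.5, 330.1 and 718 CPM in cells (2.52 ± 0.36 (SE; adjusted p = 0.00486)), and the second cell library was the low one. TAGLN, a smooth-muscle actin-binding protein, was at 162, 207 and 164 CPM against 48.9, 40.3 and 43.3 CPM (2.01 ± 0.19 (SE; adjusted p = 0.00124)), and the myosin light chain MYL9 was higher by 1.48 (adjusted p = 0.00124). ACTB measured 6489, 6581 and 6518 CPM against 3943, 3898 and 3917 CPM (0.74 ± 0.04 (SE; adjusted p = 9.88e-05)), a smaller but very even difference. The motor family was mixed: of 30 kinesins other than KIF1C 6 were higher and 5 lower (median 0.19, or -0.03 with total-read scaling), with KIF18B at 1.42 (adjusted p = 0.0122) and KIF18A at 1.55 (adjusted p = 0.0103). Differences of these 30 ran from -4.96 to 2.14, and by more than 2-fold 0 were higher and 1 was lower. Without any 1 cell library 3 to 5 kinesins were higher and 1 or 2 lower. Of 46 RAB GTPases other than RAB13 2 were higher, RAB11B (1.62 (adjusted p = 0.00177)) and RAB5C (1.16 (adjusted p = 0.00685)), and 0 lower (median 0.15, or -0.08 with 3 lower with total-read scaling).

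Cholesterol synthesis was the list with the largest share of lower genes. Of its 24 genes, 0 were higher and 14 lower (58.3%), 7 of them by more than 2-fold, against 9.21% and 0.755% of all genes. The median was -1.15, and 11 to 13 were lower without any 1 cell library. In 18 of the 24 genes every exosome library lay below every cell library, against 3036 of all 11662 tested genes. HMGCS1, which makes HMG-CoA, measured 182, 149 and 138 CPM in exosomes and 1382, 1345 and 1363 CPM in cells (-3.12 ± 0.12 (SE; adjusted p = 5.31e-05)), an 8.72-fold lower scaled level. SQLE, the squalene epoxidase, was at 77.1, 74.5 and 61.6 CPM against 274, 269.5 and 281 CPM (-1.95 ± 0.15 (SE; adjusted p = 0.000593)). Exosome and cell libraries did not overlap for either of these genes. CYP51A1, the lanosterol demethylase, had only 11, 4 and 2 exosome reads (-4.24 (adjusted p = 0.00198), and -5.16 to -3.86 with 1 library left out), and 79.4% of its exon bases overlap another gene on the same strand. MSMO1 (-2.20 (adjusted p = 0.00215)), FDFT1 (-1.42 (adjusted p = 0.000511)), FDPS (-1.51 (adjusted p = 0.00193)) and IDI1 (-1.48 (adjusted p = 0.00132)) were lower as well. INSIG1, which retains the pathway's regulator in the ER, had 81.5, 2.92 and 101 CPM in exosomes against 376, 425 and 406 CPM in cells and did not pass (-2.71 (adjusted p = 0.0521)), nor did SREBF2 (-0.23 (adjusted p = 0.352)).

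Genes whose products enter the ER were more often lower than higher in several lists. Matrix glycoproteins and their processing enzymes had 3 higher and 13 lower of 51 (median -0.42, 7 to 9 lower without any 1 cell library). NID1, a basement membrane linker, measured 144, 93.5 and 114 CPM in exosomes and 460.0, 471 and 466 CPM in cells (-1.99 ± 0.18 (SE; adjusted p = 0.00102)). The microfibril protein FBN2 was at 128, 81.8 and 76.6 CPM against 447, 459 and 459 CPM (-2.25 ± 0.21 (SE; adjusted p = 0.00124)), and the secreted growth-factor-binding protein IGFBP7 was higher by 2.09 (adjusted p = 0.00386). Transporters of the SLC families had 9 higher and 22 lower of 154 (median -0.43), but only 4 or 5 were higher and 7 or 8 lower without any 1 cell library. The potassium-chloride cotransporter SLC12A7 went against the list, at 34.9, 43.8 and 60.1 CPM against 1.58, 1.34 and 1.99 CPM (4.80 ± 0.38 (SE; adjusted p = 0.000597)). Lysosomal proteins had 0 higher and 7 lower of 34 (median -0.42, with 2 lower without any 1 cell library and 11 with total-read scaling). Integrins and cadherins had 1 higher and 5 lower of 21 (median -0.47), a count that fell to 1 lower without any 1 cell library. ER translocation and folding genes had 5 higher and 7 lower of 34 (median -0.28), with TRAM2 at -1.15 (adjusted p = 0.00444). Without any 1 cell library 1 or 2 of these were higher and 4 to 6 lower, without any 1 exosome library 2 to 4 and 7 or 8, and with total-read scaling 1 and 11. The mitochondrial SLC25 carriers, membrane proteins that do not pass through the ER, had 3 higher and 2 lower of 37 (median -0.35), and 0 and 0 without any 1 cell library.

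Collagens included higher and lower genes. Of 26 tested 7 were higher and 5 lower, with a median of 0.00 (-0.22 with total-read scaling), and 4 or 5 were higher without any 1 cell library. COL6A1 measured 1187, 1214 and 1044 CPM in exosomes and 415, 442 and 412 CPM in cells (1.44 ± 0.09 (SE; adjusted p = 0.00026)), COL6A2 was higher by 1.70 (adjusted p = 0.00193), and COL7A1, which forms anchoring fibrils, by 1.97 (adjusted p = 0.000963). COL12A1, a fibril-associated collagen, was at 338, 424 and 503 CPM against 1368, 1098 and 1092 CPM (-1.49 ± 0.17 (SE; adjusted p = 0.00246)), a call lost with limma. COL3A1, a fibrillar collagen, was uneven among exosomes, with 11, 1 and 15 reads (-4.84 (adjusted p = 0.00264)), and did not pass in the Ang libraries (-2.32 (adjusted p = 0.0981)).

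Short-lived messages of the immediate-early response were higher in many cases. Of 37 genes 16 were higher and 4 lower (median 1.13), and 9 or 10 were higher without any 1 cell library. JUNB measured 178, 183 and 137 CPM in exosomes and 28.1, 26 and 26.4 CPM in cells (2.63 ± 0.20 (SE; adjusted p = 0.000476)). ID1, an inhibitor of helix-loop-helix factors, was at 96, 42.4 and 24 CPM against 4.84, 4.99 and 5.55 CPM (3.40 ± 0.52 (SE; adjusted p = 0.00649)), and the ERK phosphatase DUSP5 at 23.3, 29.2 and 51.1 CPM against 2.17, 3.65 and 2.32 CPM (3.66 ± 0.46 (SE; adjusted p = 0.00356)). DUSP5 did not pass in the Ang libraries (1.42 (adjusted p = 0.167)). FOSB was called at 3.31 (adjusted p = 0.0133) and lost the call without the third cell library. Among members named after their values were seen, IER2 was higher by 1.97 (adjusted p = 0.000381) and MYC by 1.30 (adjusted p = 0.00942). FOS (0.21 (adjusted p = 0.73)) and EGR1 (0.01 (adjusted p = 0.965)) did not pass. The lower members were CCN1 (-1.59 (adjusted p = 0.00225)), CCN2 (-1.87 (adjusted p = 0.00332)), KLF6 (-1.46 (adjusted p = 0.0048)) and SGK1 (-1.62 (adjusted p = 0.0245)), the last losing its call without any 1 cell library. CCN1 and CCN2 encode secreted matrix proteins.

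Stress programs were counted in several lists. The integrated stress and unfolded protein responses had 5 of 25 higher and 3 lower (median 0.21, or -0.01 with total-read scaling), and 3 higher and 0 lower without any 1 cell library. CEBPB was higher (271, 355 and 356 CPM in exosomes, 85.8, 78.6 and 79 CPM in cells, 2.01 ± 0.16 (SE; adjusted p = 0.000702)) along with DDIT3, and the ER stress sensor ATF6 was lower (-1.29 (adjusted p = 0.0142)). Of 23 p53 targets 6 were higher and 0 lower (median 0.41), and 2 were higher without any 1 cell library. CDKN1A, the cell-cycle inhibitor p21, measured 224, 185 and 227 CPM against 55.6, 63.7 and 62.6 CPM (1.81 ± 0.17 (SE; adjusted p = 0.00117)). Genes of NRF2 and iron metabolism had 7 of 25 higher and 5 lower (median 0.08, or -0.14 with total-read scaling), and 3 or 4 higher without any 1 cell library. FTH1, the ferritin heavy chain, was higher (2427, 2385 and 2552 CPM against 964, 972 and 1000.2 CPM, 1.33 ± 0.06 (SE; adjusted p = 7.11e-05)), while the transferrin receptor TFRC was lower (42.2, 19 and 34.6 CPM against 135, 135 and 126 CPM, -2.05 ± 0.29 (SE; adjusted p = 0.00495)). Interferon-response genes had 0 higher and 2 lower of 33 (median -0.24), and from 1 to 6 lower with 1 library left out, the 6 without the first exosome library.

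Proliferation genes were counted by cell-cycle phase. Of 30 genes of the G1/S transition and DNA replication 2 were higher and 11 lower (median -0.60, with 6 or 7 lower without any 1 cell library). MCM6, a subunit of the replicative helicase, measured 87.3, 54 and 82.6 CPM in exosomes and 200.4, 198 and 217 CPM in cells (-1.46 ± 0.21 (SE; adjusted p = 0.00558)). FEN1, the flap endonuclease of lagging-strand synthesis, went the other way, at 134, 93.5 and 102 CPM against 13.5, 15.7 and 10.7 CPM (3.05 ± 0.26 (SE; adjusted p = 0.000882)). Of 35 genes of G2 and mitosis 7 were higher and 3 lower (median 0.45). Without any 1 cell library 4 to 6 were higher, without the second exosome library 5 were lower, and with total-read scaling 4 were higher (median 0.22). CDC20, an activator of the anaphase-promoting complex, was at 303, 418 and 358 CPM against 110.0, 124 and 114 CPM (1.63 ± 0.16 (SE; adjusted p = 0.00144)), and CCNB1 was higher by 1.21 (adjusted p = 0.00541). The proliferation antigen MKI67 was lower, at 1017, 443 and 394 CPM against 3299, 3364 and 2480.2 CPM (-2.30 ± 0.37 (SE; adjusted p = 0.00767)), a call lost with limma and with all 12 libraries in the fit.

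Histone messages and the proteins that handle histones were counted separately. Replication-dependent histone genes, whose messages end in a stem-loop and carry no poly(A) tail, had 1 of 62 higher and 17 lower (27.4%, median -0.33). Only 6 were lower without any 1 cell library. H1-3, a linker histone, measured 37.8, 48.2 and 58.6 CPM in exosomes and 133, 139 and 143 CPM in cells (-1.52 ± 0.21 (SE; adjusted p = 0.00455)), and the higher member was H3C14 (1.29 (adjusted p = 0.00831)). The library kits differed between the compartments, and their part in this result cannot be told apart from it. Histone chaperones and high-mobility-group proteins had 11 of 25 higher and 0 lower (median 0.33, 9 or 10 without any 1 cell library). With total-read scaling the median was 0.11, with 9 higher and 2 lower. Besides ANP32B, PTMS measured 1324, 1358 and 1346 CPM against 171, 197 and 194 CPM (2.84 ± 0.09 (SE; adjusted p = 3.93e-05)), and SET 2243, 1923 and 2154 CPM against 722, 764 and 772 CPM (1.49 ± 0.08 (SE; adjusted p = 0.000139)). Zinc finger genes named ZNF, mostly transcription factors, had 20 of 377 higher and 43 lower (11.4%, median -0.53), and 6 to 9 and 5 to 10 without any 1 cell library.

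Genes that define or build exosomes were not set apart by their own messages. Of 41 vesicle marker and biogenesis genes 4 were higher and 2 lower (median 0.10, or -0.12 with 2 higher and 4 lower with total-read scaling). Without the second or the third cell library 2 were higher, and the lower count ran from 1 to 5 with 1 library left out, the 5 without the second exosome library. CD63, a tetraspanin used as an exosome marker, measured 228, 257 and 216 CPM in exosomes and 255, 231 and 241 CPM in cells (-0.05 ± 0.13 (SE; adjusted p = 0.82)). CD81 (-0.01 (adjusted p = 0.993)) and CD9 (-0.05 (adjusted p = 0.887)) overlapped between the groups too. CHMP4B of the ESCRT-III complex, which cuts vesicles from membranes, was higher (611, 603 and 571 CPM against 253, 252 and 252 CPM, 1.24 ± 0.10 (SE; adjusted p = 0.000574)). FLOT1, a membrane raft protein, was lower at -1.32 (adjusted p = 0.00581).

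RNA-binding proteins that have been tied to the sorting of RNA into vesicles had 6 of 28 higher and 4 lower (median 0.04, or -0.19 with 3 higher and 6 lower with total-read scaling). Without the third cell library 3 were higher, and without the first or the second 2 were lower. The message of YBX1, a cold-shock protein, measured 4361, 4038 and 3996 CPM in exosomes and 1128, 911 and 606 CPM in cells (2.23 ± 0.21 (SE; adjusted p = 0.00126)). NCL, nucleolin, was at 7301, 7177 and 4244 CPM against 1585, 1638 and 1712 CPM (1.92 ± 0.20 (SE; adjusted p = 0.00179)). HNRNPA2B1 overlapped widely, at 819, 884 and 526 CPM against 991, 862 and 348 CPM (0.02 ± 0.39 (SE; adjusted p = 0.979)), and G3BP1 of stress granules was lower at -1.31 (adjusted p = 0.0121). Spliceosome, SR and hnRNP genes had 12 of 60 higher and 7 lower (median 0.13, or -0.10 with 9 higher and 12 lower with total-read scaling), with SRSF4 higher (2.39 (adjusted p = 0.000338)) and DDX17 lower. SRSF4 did not pass in the Ang libraries (0.86 (adjusted p = 0.252)). Of 15 genes of microRNA processing 1 was higher (DIS3L2, 1.06 (adjusted p = 0.0486), a call lost without any 1 cell library) and 1 lower: AGO2, the microRNA-guided slicer, at 144, 175 and 143 CPM against 289, 285 and 286 CPM (-0.90 ± 0.14 (SE; adjusted p = 0.00678)).

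Markers of the parental cell types were read in both compartments. Of 29 cardiomyocyte markers 8 were not listed, 14 were listed in cells only and 7 were tested. TNNT2, cardiac troponin T, was listed in cells only, with 5, 0 and 0 reads. ACTN2 had 29, 27 and 18 cell reads and 7, 7 and 5 exosome reads, and its call as higher (adjusted p = 0.0369) was lost without the first or the second exosome library. The cardiac transcription factor GATA4 was present, with 239, 280 and 269 reads in cells and 31, 31 and 6 in exosomes (0.45 (adjusted p = 0.571)). TTN was lower (11.6, 11.7 and 10.5 CPM in exosomes, 73.3, 73.5 and 70.7 CPM in cells, -2.68 ± 0.23 (SE; adjusted p = 0.000843)), and TPM1, which many cell types express, was higher (0.85 (adjusted p = 0.00254)). The troponin that defines cardiomyocytes was thus at or near 0 in these cells. The fibroblast marker COL1A1 measured 3119, 3123 and 3096 CPM in cells and 2532, 2601 and 2319.6 CPM in exosomes (-0.33 ± 0.06 (SE; adjusted p = 0.0117)). COL1A2 had 7801, 10811 and 11717 reads in cells and 269, 296 and 232 in exosomes. THY1 had 1694, 1930 and 2178 reads in cells and 156, 65 and 156 in exosomes. Reads, unlike CPM, are not scaled for depth. Of 18 fibroblast and mesenchymal markers 5 were higher and 4 lower (median -0.11, range -4.84 to 2.85). With 1 library left out 3 to 5 were higher. The higher ones included ZEB1 (825, 909.9 and 834 CPM against 117, 117 and 122 CPM, 2.85 ± 0.10 (SE; adjusted p = 3.93e-05)) and TWIST2 (2.76 (adjusted p = 0.00104)). The lower ones included COL3A1, at -4.84 on the few and uneven exosome reads given with the collagens.

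Markers of cell types the preparations should lack were read in the same way. Of endothelial, immune, red cell and platelet, liver and serum, and epithelial markers, 9, 8, 10, 4 and 10 were listed in either compartment. Another 3, 9, 5, 10 and 4 were not listed. ALB, APOA1 and PPBP were not listed. PTPRC (12, 17 and 12 reads), EPCAM (33, 27 and 40) and CDH1 (81, 44 and 100) were listed in cells only. PECAM1 had 14, 15 and 14 cell reads and 0, 1 and 5 exosome reads. VWF had 18, 35 and 25 cell reads and 0, 7 and 0 exosome reads. Hemoglobin beta (HBB) was listed in exosomes only, with 7, 2 and 0 reads, and HBA1 had 13, 1 and 0 exosome reads, so the first exosome library held most of them. CD68, an endosomal glycoprotein used as a macrophage marker, was called at 1.98 (adjusted p = 0.0424) on uneven exosome libraries (56.8, 93.5 and 16.5 CPM). KRT18, a keratin, was higher by 1.04 (adjusted p = 0.00378) and OCLN of tight junctions lower at -2.16 (adjusted p = 0.0111). The part of such reads in the other results was not tested.

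Properties of the messages that the choice of libraries did not use varied with the difference. In 5 equal groups by exon length, with medians from 2283 to 10936 bases, the share of higher genes went from 19.9% in the shortest group to 8.24% in the longest, and the share of lower genes from 2.92% to 16.4%. The median difference went from 0.35 to -0.35 (Spearman's rank correlation over 11651 genes, -0.225). GC content of the transcript ran the other way: from the lowest to the highest of 5 groups, the higher genes went from 4.72% to 20.8%, the lower genes from 13.3% to 3.61%, and the median from -0.38 to 0.39 (rank correlation 0.267). The length of the coding region (rank correlation -0.170) and of the 3′ UTR (rank correlation -0.176) gave weaker relations. Genes share these libraries and these properties are related to each other, so the values are descriptions across genes, and compartment and library kit cannot be told apart in them.

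Genes were also divided by a stretch of 19 residues of high mean hydropathy in the encoded protein, the mark of a signal peptide or membrane span. Of 7980 genes with no such stretch 13.3% were higher and 7.48% lower (median 0.02). Of 1029 genes with one lying wholly within the first 35 residues 6.41% were higher and 12.1% lower (median -0.36). Of 2623 with one elsewhere only, the shares were 7.09% and 13.2% (median -0.26). In each of the 5 groups of exon length the genes without a stretch had the largest share of higher genes and the smallest share of lower ones. In the shortest group the higher genes were 22.7% of 1719 without a stretch and 12.1% of 224 with one near the start. In the longest they were 9.02% of 1508 and 3.24% of 185.

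**Figure D4:**
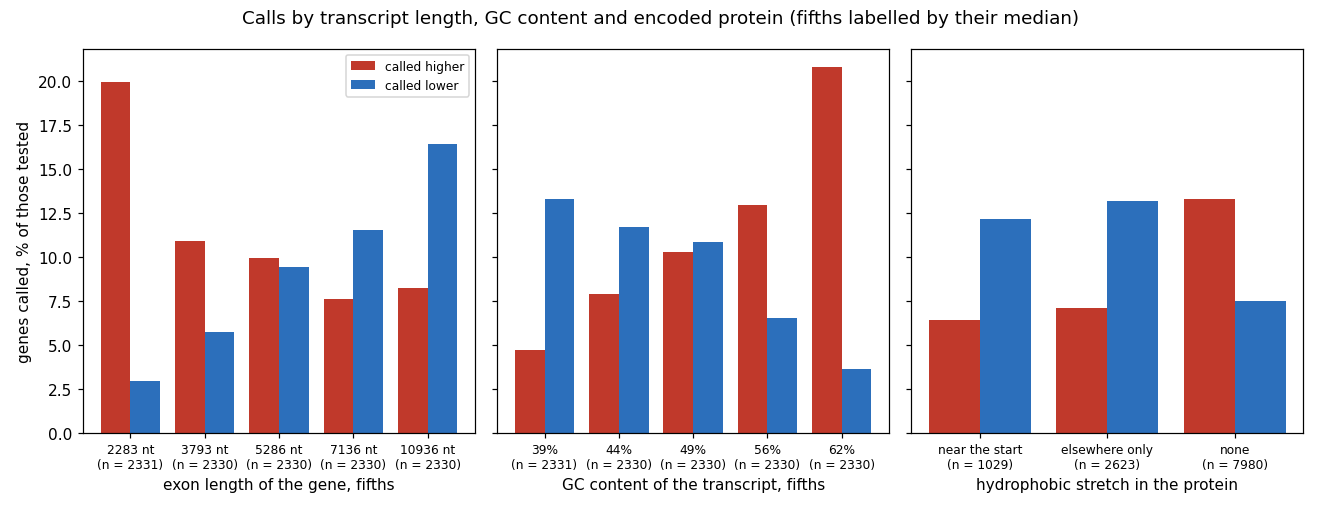
The percentage of genes called higher and lower in exosomes is plotted for 5 groups of exon length, 5 groups of transcript GC content and the 3 classes of hydrophobic stretch. Higher genes go from 19.9% in the shortest to 8.24% in the longest group and from 4.72% to 20.8% across GC content.

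The 6 Ang libraries gave the same comparison in libraries that share none with Con. Of 11551 genes tested in both fits, 1299 of the Con-higher genes and 1074 of the Con-lower genes were present. Of these, 735 (56.6%) and 441 (41.1%) were called in the same direction in Ang, which is 66.6% of the 1104 higher and 43.4% of the 1015 lower Ang genes. The sign was the same for 1263 and 1015 of them, and 3 and 1 were called in the opposite direction. The median difference of the Con-higher genes was 1.37 in Con and 1.19 in Ang, and that of the Con-lower genes -1.34 and -1.01. The genes were picked by their Con values, so the 2 medians are not on an equal footing.

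**Figure D5:**
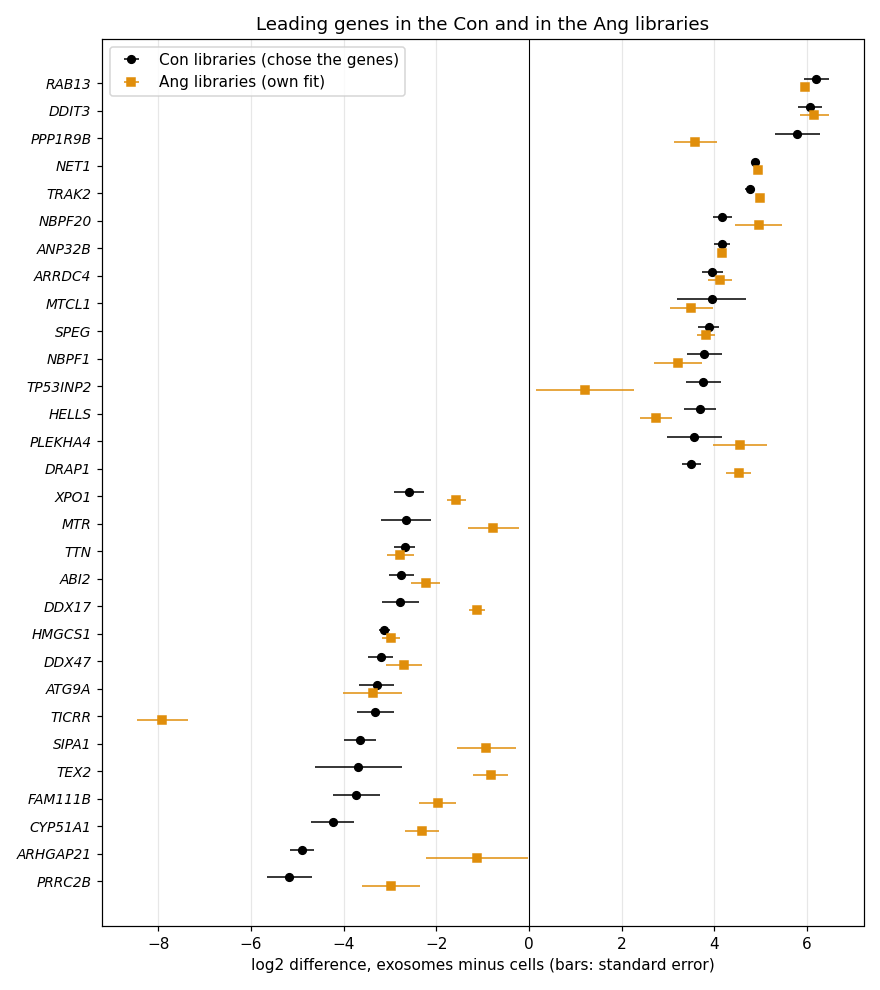
Log2 differences (exosomes minus cells, bars for the standard error) of the 30 leading genes in the 6 Con libraries, which chose them (black), and in the 6 Ang libraries (orange). RAB13, NET1 and TRAK2 lie at 6.20, 4.88 and 4.76 in Con and 5.95, 4.94 and 4.99 in Ang, while SIPA1 and ARHGAP21 move to -0.93 and -1.13, and TICRR, at -7.92 in Ang, had 1, 0 and 0 exosome reads there.

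Several leading genes had like values in the Ang libraries. RAB13 was higher by 5.95 (adjusted p = 5.58e-08) there, NET1 by 4.94 (adjusted p = 1.25e-07), TRAK2 by 4.99 (adjusted p = 1.25e-07), ANP32B by 4.16 (adjusted p = 1.25e-07) and DDIT3 by 6.16 (adjusted p = 0.000119). PPP1R9B was at 3.59 (adjusted p = 0.00396), below its Con value of 5.79. Of the protrusion messages 6 of 10 were higher (median 2.84). Of the ribosomal protein genes 62 of 84 were higher and 0 lower (median 0.78), and of the cholesterol genes 15 of 24 were lower and 0 higher (median -1.31). HMGCS1 was lower at -2.97 (adjusted p = 0.000306). TP53INP2 (1.20 (adjusted p = 0.464)), SIPA1 (-0.93 (adjusted p = 0.356)) and MTR (-0.77 (adjusted p = 0.372)) did not pass in Ang. A test of whether the exosome-to-cell difference depended on the label called 3 of 11811 genes (0.0254%), which are named in the closing section. For the other genes a dependence was not detected at this depth.

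Genes listed in cells only held 0.668% to 0.706% of the cell reads. They had a median of 24 reads over the 3 Con cell libraries, 1216 of the 3441 had at least 10 reads in each, and 46 would be expected at 10 or more reads per library at exosome depth. The most abundant was SRCAP, a chromatin remodelling ATPase, with 653, 2357 and 2179 reads, the first library being low. PIK3C2A, a lipid kinase of endocytosis, had 1364, 1480 and 1681 reads. CPSF2, a subunit of the complex that cuts messages before polyadenylation, had 1057, 1169 and 1338. At their cell share, 124, 109 and 86.1 reads per exosome library would have been expected for these 3. SCAF8 (499, 1233 and 1170), RMND5A (550, 585 and 715) and SPOUT1 (501, 565 and 598) followed. An unlisted gene has no deposited count in that compartment, so no fold was computed.

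Genes listed in exosomes only were rare and low. Of the 33, 9 had 0 reads in all Con exosome libraries and 1 had at least 10 in each: INO80B-WBP1, a read-through of neighbouring genes, with 13, 16 and 11 reads. NOTCH2NLB, one of several near-identical NOTCH2 copies, had 5, 12 and 15. Read-through and near-identical genes share reads with their neighbours or copies, so a listing in 1 compartment may turn on the assignment of reads, which was not tested.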

How the data were processed

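Messenger RNA was measured by sequencing in 3 Con cell and 3 Con exosome libraries, with 3 and 3 Ang libraries beside them. The authors deposited 1 table per library with a whole-number read count per Ensembl gene, per the file headers. GRCh38, HISAT2 and StringTie are named in the submitters' processing notes. How reads were counted, whether strand was used and which annotation release applied is not given in the sources used here. The lowest total of a listed gene over the 6 libraries of its compartment was 7 reads. Circular RNA tables were not used here.

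Counts of genes listed in both compartments were fitted in edgeR 4.0.16 (R 4.3.3; quasi-likelihood, trimmed-mean scaling, filterByExpr with a minimum count of 10 and total of 15, Benjamini-Hochberg threshold 0.05, two-sided), with DESeq2 1.42.0 and limma 3.58.1 as alternatives. Tested on simulated data for this comparison (11741 genes), edgeR recovered 72 of 100 genes changed 4-fold and 10 of 100 changed 2-fold. The simulation changed a far smaller share of genes than the 20.5% called in the data. Its exosome spread was also set below the coefficient of variation of 0.473 found here, so these rates may not hold for the data. Alternatives also varied the scaling, filter, depth, pairing and libraries. Coordinates, lengths and coding regions came from GENCODE release 29. Exosome libraries, at 717263 to 745311 reads, limit precision more than cell libraries.

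Named genes were the 15 highest and 15 lowest called genes with non-overlapping groups, at least 10 reads per group, libraries within 4-fold of their group median and a mean level at or above the median, and up to 4 such members per list. A few members that these rules name are not reported here. Members of short lists were described whatever their values, and a few others are marked as chosen after their values were seen. The libraries, lists and tests were chosen with earlier results of these data known.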

Additional observations from a re-analysis of the deposited data

Results flagged for a closer look

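The exosome-to-cell difference depended on the label, Ang against Con, for 3 of 11811 genes by edgeR's interaction test. RAI1, a chromatin-binding regulator, was lower in Con exosomes (-1.96) and not in Ang (0.41), an interaction of 2.37 on the log2 scale (adjusted p = 0.0293). Reads in exosomes were 20, 36 and 22 for Con against 93, 128 and 90 for Ang. EIF2AK3, the ER stress kinase PERK, had an interaction of -3.67 (adjusted p = 0.0293), and its exosome libraries held 15, 20 and 19 reads (Con) against 1, 1 and 1 (Ang). TXNIP, an arrestin-like regulator of glucose uptake, had -8.13 (adjusted p = 1.75e-05), and its reads in the exosome libraries were 126, 165 and 111 for Con against 0, 1 and 0 for Ang. Its cell reads were 3755, 3473 and 4241 and 3486, 3511 and 3643, so the change lay in the exosome libraries. The size of the TXNIP value depends on the small count that the fit adds, since 2 Ang exosome libraries had 0 reads.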

How the results depend on the processing

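Against 1321 higher and 1074 lower genes, DESeq2 gave 2101 and 1876. Scaling by total reads gave 1686 lower genes, limma's voom 628 lower, and the replicate block 745 higher and 482 lower. Past 2-fold (224 higher and 88 lower), total reads gave 120 higher, voom 81 higher and 10 lower, and the replicate block 104 higher and 26 lower. With 1 library left out, the counts ranged from 743 to 1337 higher and from 375 to 1418 lower, and past 2-fold from 103 to 161 higher and from 19 to 117 lower. The low ends came from leaving out a cell library, which raised the filter so that 9753 to 9766 genes were tested. Same-numbered exosome and cell libraries did not deviate together (correlations of -0.0012, 0.0298 and 0.0109), so the numbers are not taken to pair them. No called gene among those named in the text changed sign in any alternative run. Among named genes that did not pass, some differences near 0 did, and none passed with the other sign. Total-read scaling gave -0.21 for EGR1, -0.18 for EIF3D, -0.014 for FOS and -0.21 for HNRNPA2B1. EGR1 was at -0.0054 with voom and -0.013 with the replicate block. CD81 was at 0.029 with DESeq2's size factors, 0.028 with DESeq2, 0.019 with a minimum count of 30 and 0.12 with cell counts thinned to exosome depth, and CD9 at 0.0089 with the last. With 1 library left out, ranges were -0.13 to 0.013 for CD63, -0.27 to 0.26 for CD81, -0.13 to 0.024 for CD9, -0.20 to 0.65 for DYNLL2, -0.16 to 0.15 for EGR1, -0.0026 to 0.13 for EIF3D, -0.20 to 0.49 for FOS and -0.29 to 0.32 for HNRNPA2B1. INSIG1, PGK1, PKP4, CYB5R3, EIF3E and GATA4, which did not pass, passed in the reported direction in at least 1 alternative (INSIG1 without the second exosome library at an adjusted p of 0.0029, CYB5R3 without the third cell library at 0.00255, both by edgeR). With voom, lower counts fell to 10 of the replication-dependent histones, 11 of the SLC transporters and 18 of the zinc finger genes. The other scaling, filter, 12-library and thinned fits gave total counts within 1.5 times of those reported. Exosome depth limits low genes: 946 tested genes had under 10 exosome reads in total.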
